A study of Mus musculus with 12 samples.

Results

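The liver secretes most of the proteins that start complement and that form and dissolve blood clots, and the messenger RNAs of 36 of these early complement and coagulation factors were followed here. The genes were taken by symbol from a written list. All 36 were found among the 36047 genes with matched transcripts, and all 36 passed the filter on low counts and were among the 14670 genes tested. Terminal complement components were not on the list.

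Livers came from 12 male C57Bl/6J mice aged 5 to 6 months, with 3 mice in each of 4 diet groups, collected on day 7 of the diets after food had been withheld for 4 h. The diets supplied 18% of energy as fat in the regular-fat groups (RF) and 60% in the high-fat groups (HF). Every diet, controls included, was free of cysteine, and the sulfur amino acid restricted diets (SAAR) were in addition low in methionine, which glutamic acid replaced, while the control diets (Ctrl) were not. The paper describes deuterium oxide given to the mice by injection and in drinking water. Mice were singly housed, and a mouse is the unit of replication throughout. Estimated read-pair counts per library were 18722319, 20162590 and 17207527 in RF.Ctrl, 17061599, 18429983 and 17947785 in RF.SAAR, 16203094, 21230092 and 16649996 in HF.Ctrl, and 17710716, 19933360 and 19895587 in HF.SAAR.

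Complement is a cascade of plasma proteases in which the classical pathway (started by bound antibody), the lectin pathway (started by microbial sugars) and the alternative pathway all lead to cleavage of C3. Coagulation is a second protease cascade that ends in thrombin, which turns soluble fibrinogen into fibrin, while plasmin dissolves the clot. Hepatocytes make nearly all of these proteins, and several of the zymogens need vitamin K for a modification that lets them bind membranes.

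Counts were compared after scaling each library by the trimmed mean of M-values (TMM), so a log2 fold change of 0 is the change of the typical gene. Counts relative to the library total on that scale are given as normalized CPM, and a gene was called where the adjusted p was under 0.05. Where mice of the diets are said not to overlap, this describes the same counts. The share of all genes without overlap was not counted. When SAAR was set against Ctrl and averaged over both fat levels, 12 of the 36 genes were called, all of them lower and none higher. Among all genes tested 6.92% were called in that comparison, and 3.70% were called lower. At an unadjusted p under 0.05 were 22 of the 36 against 20.3% of all genes by edgeR, and DESeq2 called 16 of the 36, all lower, against 9.17%. The median log2 fold change of the 36 was -0.16, against 0.00 over all genes tested, and 33 of the 36 were below 0. These falls are relative to the typical gene: with scaling by library size alone the median of all genes moved up to 0.16, the median of the 36 became 0.01, and 4 of the 36 were called against 16.7% of all genes, with F11, F13b and Cpb2 lower and Kng2 higher.

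Within the fat levels fewer genes passed. In RF.SAAR vs. RF.Ctrl 4 of the 36 were called lower (F11, F13b, Cpb2 and C4bp) against 1.49% of all genes, and the median log2 fold change was -0.23. In HF.SAAR vs. HF.Ctrl 2 of the 36 were called lower (F11 and F13b) against 1.97%, with a median of -0.15, which became 0.02 with scaling by library size alone. With that scaling 2 were called in RF (F11 and Cpb2, lower) against 2.90% of all genes, and 1 in HF (Kng2, higher) against 4.89%. Both counts depended on single libraries. The RF count dropped to 2 without RF.Ctrl mouse 1, RF.Ctrl mouse 2, RF.SAAR mouse 2, HF.Ctrl mouse 1 or HF.SAAR mouse 1, and to 1 without RF.Ctrl mouse 3 or RF.SAAR mouse 3. The share of all genes called was then 0.579% to 1.22%. The HF count dropped to 0 by edgeR without RF.Ctrl mouse 2, any HF.Ctrl mouse, HF.SAAR mouse 1 or HF.SAAR mouse 3, and to 1 without HF.SAAR mouse 2 or any RF.SAAR mouse, with 0.732% to 2.07% of all genes called. With all mice, 17 of the 36 in RF against 13.6% of all genes, and 14 in HF against 12.4%, had an unadjusted p under 0.05. DESeq2 called 9 in RF, all lower, against 4.85%, and 5 in HF, with Kng2 higher and the other 4 lower, against 4.71%. The 2 comparisons share no mice and come from one fit. Why leaving out a mouse of one fat level changed the count in the other was not tested.

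**Figure D1:**
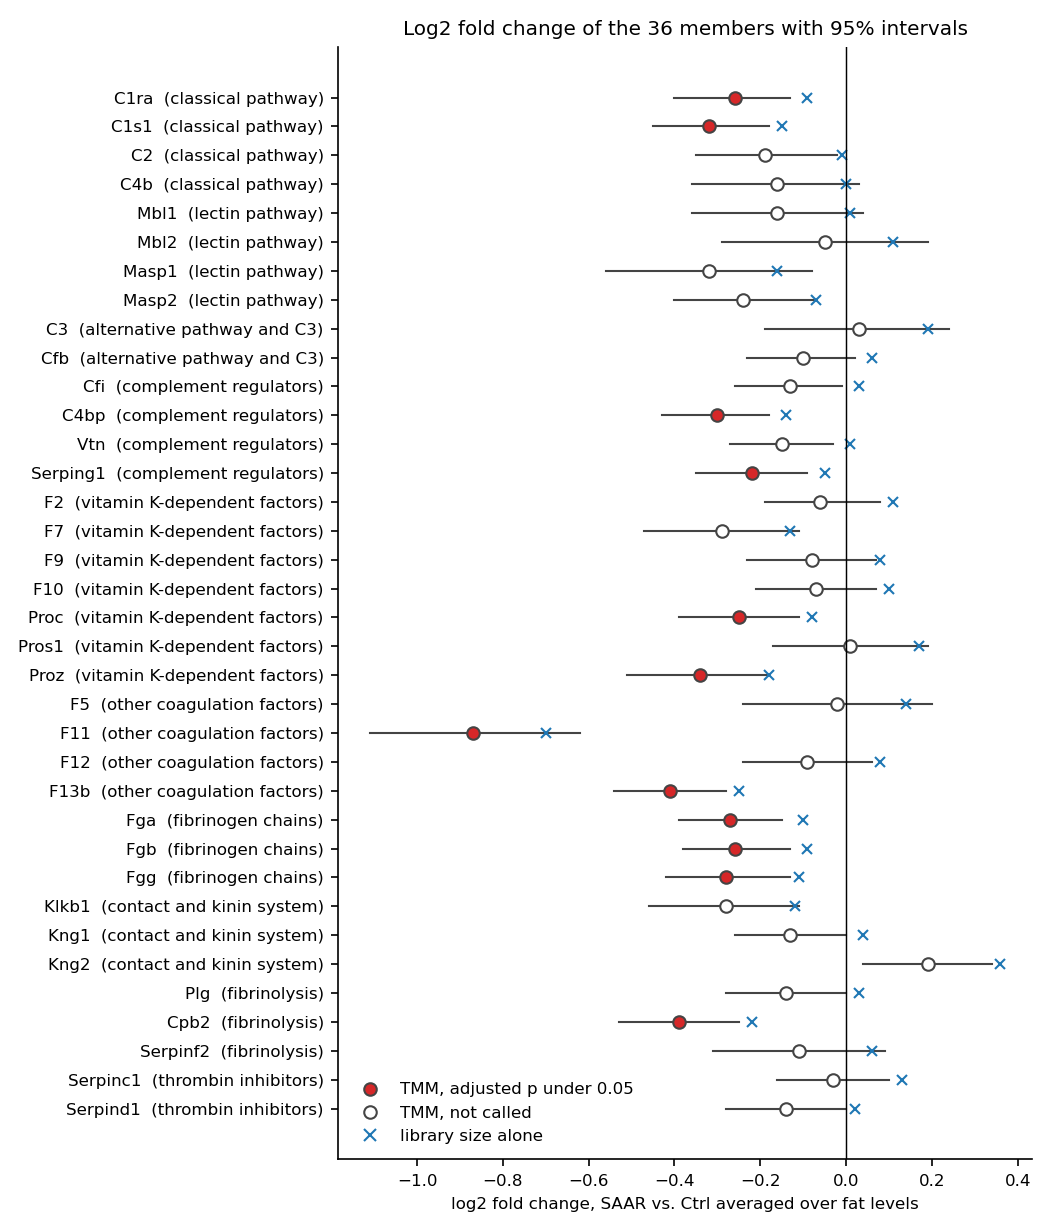
Log2 fold change of each of the 36 genes in SAAR vs. Ctrl averaged over fat levels, on the x axis, with genes ordered by role. Circles and bars are TMM estimates with 95% intervals (n = 12 mice), filled circles are called, and crosses are estimates with scaling by library size alone, under which the median moved from -0.16 to 0.01 and many uncalled genes changed sign.

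Levels spanned a wide range. Per length, averaged over the 12 mice, the fibrinogen gamma chain gene Fgg had a level of 2531 TPM (transcript abundance corrected for length, on a scale with the same sum in every library), followed by Serpinc1 at 2276 and Fga at 2124, while Pros1 had 21.1 and Masp1 24.4. Among all matched genes these levels ranked from place 50 for Fgg to place 3056 for Pros1. Together the 36 genes held the following percent of the TPM of matched genes: 1.67, 2.01 and 1.84 in RF.Ctrl, 2.10, 1.75 and 1.81 in RF.SAAR, 1.61, 1.48 and 1.73 in HF.Ctrl, and 1.86, 1.67 and 1.95 in HF.SAAR. On this measure, which is relative to the total of each library and not scaled by TMM, the SAAR and Ctrl mice overlapped at both fat levels. In HF they did so only through HF.Ctrl mouse 3 and HF.SAAR mouse 2, while HF.SAAR mice 1 and 3 were above every HF.Ctrl mouse. In normalized CPM the summed level was 34315, 37534 and 35185 in RF.Ctrl, 32317, 30526 and 29065 in RF.SAAR, 34655, 35217 and 33023 in HF.Ctrl, and 31360.2, 31643 and 31939 in HF.SAAR, and there every SAAR mouse was below every Ctrl mouse of its fat level. 

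Tissue makeup was read from marker lists. Of 10 hepatocyte markers 9 were matched and tested, with Alb most abundant (mean 32728 TPM). In the averaged comparison edgeR called 0 of the 9, with 2 at an unadjusted p under 0.05, and DESeq2 called 1. The median log2 fold change of the 9 was -0.13 averaged, -0.18 in RF and -0.03 in HF, beside -0.16, -0.23 and -0.15 for the 36. Their summed normalized CPM were 91822, 106524 and 100826 in RF.Ctrl, 92772, 85483 and 84317 in RF.SAAR, 101496, 97793 and 87808 in HF.Ctrl, and 93409, 99019 and 89133 in HF.SAAR, with the diets overlapping at both fat levels. In bulk liver, fewer cells of a type and less RNA per cell cannot be told apart. Of 8 cholangiocyte markers all were matched and none was at 0 in every mouse. Their summed normalized CPM ran between 49.1 and 55.3 for RF.SAAR mice, beside 57.2 and 71.0 for RF.Ctrl, and between 46.5 and 51.2 for HF.SAAR mice, beside 53.2 and 69.5 for HF.Ctrl. Thus every SAAR mouse was below every Ctrl mouse of its fat level. Most of each sum was Spp1, and the other 7 markers summed to 24.9, 21.2 and 22.2 in RF.Ctrl, 20.2, 20.0 and 20.1 in RF.SAAR, 16.2, 20.8 and 22.1 in HF.Ctrl, and 17.3, 17.0 and 20.2 in HF.SAAR normalized CPM. Without Spp1 the diets overlapped in HF. By edgeR 1 of 7 tested was called lower in the averaged comparison, Spp1, which was also most abundant (mean 32.5 TPM), and the median log2 fold change was -0.39. The part of these markers in the changes of the 36 was not tested. Markers of pancreatic acinar cells differed strongly between libraries: all 34 listed genes were matched, none was at 0 in every mouse, Ctrb1 was most abundant (mean 587 TPM), and the sums were 1862, 86.3 and 93.6 in RF.Ctrl, 44.7, 106 and 77.2 in RF.SAAR, 2133, 7801 and 85.6 in HF.Ctrl, and 76.7, 4539 and 20469 in HF.SAAR. High sums were present in RF.Ctrl mouse 1, HF.Ctrl mouse 1, HF.Ctrl mouse 2, HF.SAAR mouse 2 and HF.SAAR mouse 3. These libraries belong to both diets but mostly to high fat, and none is from RF.SAAR. The median log2 fold change of the acinar list was -3.48 in RF and 1.12 in HF. When the acinar genes were left out of the counts 13 of the 36 were called against 7.02% of all genes, and with the acinar sum as a covariate 11 were against 7.51%. When those 5 libraries were left out, only F11 was called of the 36 against 1.52% of all genes, while the median log2 fold change of the 36 was -0.17, with HF.Ctrl and HF.SAAR then holding 1 mouse each that is assumed to vary like the other mice. These checks were chosen after seeing the data.

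**Figure D2:**
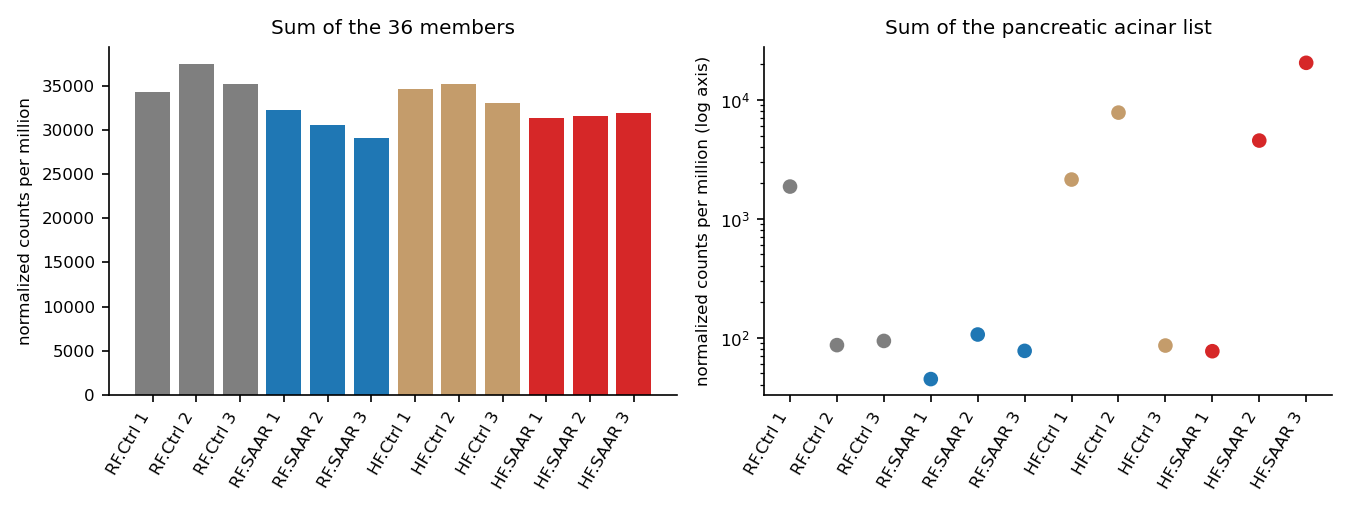
Summed normalized CPM in each of the 12 mice (x axis), for the 36 genes as bars from 0 (left) and for the pancreatic acinar list as points on a log axis (right). SAAR sums of the 36 genes lie below Ctrl sums at each fat level on this TMM scale, but not in percent of the TPM of matched genes. Acinar sums run from 44.7 to 20469.

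F11 encodes coagulation factor XI, a protease zymogen that activates factor IX and amplifies thrombin formation, and it had the largest change of the 36. The gene lies at chr8:45241174-45262031 of GRCm38 on the minus strand. Its normalized CPM were 99.6, 123 and 169 in RF.Ctrl, 69.1, 59.4 and 60.8 in RF.SAAR, 127, 136 and 138 in HF.Ctrl, and 76.6, 78.0 and 94.1 in HF.SAAR. Every SAAR mouse was below every Ctrl mouse of the same fat level, and the RF.Ctrl mice were the most spread. The averaged log2 fold change was -0.87 (SE 0.11, edgeR adjusted p = 5.17e-04), and it was called in 22 of 22 alternative analyses, between -1.04 and -0.70. It was -1.05 (SE 0.16, edgeR adjusted p = 0.00543) in the RF comparison, called in 23 of 23 alternatives, and -0.69 (SE 0.16, edgeR adjusted p = 0.0426) in the HF comparison. The HF call was lost without any one of 10 mice, with log2 fold changes of -0.79 to -0.63 and adjusted p between 0.0535 and 0.171 by edgeR. Of the fits without a mouse it remained only without RF.Ctrl mouse 1 or RF.Ctrl mouse 3. Over all alternatives the HF call held in 8 of 23, and it was also lost with scaling by library size alone (-0.52, edgeR adjusted p = 0.116, range over alternatives 0.00245 to 0.309), effective length offsets, the acinar covariate, the most abundant transcript and without the high-acinar libraries.

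F13b encodes the carrier subunit of factor XIII, the transglutaminase that crosslinks fibrin, and lies at chr1:139501702-139523752 on the plus strand. Its normalized CPM were 250.4, 263 and 271 in RF.Ctrl, 200.4, 195 and 196 in RF.SAAR, 275, 282 and 283 in HF.Ctrl, and 199, 232 and 202 in HF.SAAR. No SAAR mouse reached the lowest Ctrl mouse of its fat level. The averaged log2 fold change was -0.41 (SE 0.06, edgeR adjusted p = 0.00151), and it was -0.41 at each fat level, with adjusted p = 0.0343 in RF and 0.0286 in HF by edgeR. In RF the call was lost without any one RF mouse, HF.Ctrl mouse 1 or HF.SAAR mouse 1 (log2 fold change -0.44 to -0.38, edgeR adjusted p 0.0521 to 0.150). The HF call was lost without RF.Ctrl mouse 2, any HF.Ctrl mouse, HF.SAAR mouse 1 or HF.SAAR mouse 3 (-0.42 to -0.37, edgeR adjusted p 0.0510 to 0.149). Both were also lost with scaling by library size alone (-0.25 at each fat level, edgeR adjusted p = 0.156 in RF and 0.140 in HF), with no low-count filter, with the compared groups alone and without the high-acinar libraries. Over all alternatives they held in 10 of 23 in RF (edgeR or DESeq2 adjusted p 1.68e-04 to 0.156) and 13 of 23 in HF (1.10e-04 to 0.411), the RF call being lost with the most abundant transcript too. The averaged call held in 21 of 22 alternatives and was lost only when the high-acinar libraries were left out (log2 fold change -0.48, edgeR adjusted p = 0.0567, the highest of the alternatives, whose lowest was 1.57e-09).

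Cpb2 encodes a carboxypeptidase (thrombin-activatable fibrinolysis inhibitor) that trims fibrin and slows plasmin formation, and lies at chr14:75242287-75283555 on the plus strand. In normalized CPM it measured 269, 261 and 279 in RF.Ctrl, 198, 187 and 179.9 in RF.SAAR, 249, 281 and 238 in HF.Ctrl, and 210.3, 223 and 206 in HF.SAAR. The groups did not overlap at either fat level, with the narrower gap in HF. The averaged log2 fold change was -0.39 (SE 0.06, edgeR adjusted p = 0.00278), and it was -0.52 (SE 0.09, edgeR adjusted p = 0.0138) in RF and -0.26 (SE 0.09, edgeR adjusted p = 0.206) in HF, where it was not called. The averaged call held in 21 of 22 alternatives and was lost without the high-acinar libraries (-0.36). With scaling by library size alone the averaged and RF changes were smaller but still called, at -0.22 and -0.35, and the HF change was -0.09. In RF the call was lost without RF.Ctrl mouse 3 or RF.SAAR mouse 3 (edgeR adjusted p = 0.0654 and 0.0669, range over alternatives 7.97e-07 to 0.107) and without the high-acinar libraries (-0.52).

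C4bp encodes the C4b-binding protein, a cofactor for the inactivation of C4b, and lies at chr1:130634773-130661632 on the minus strand. Normalized CPM of C4bp were 712, 686 and 656 in RF.Ctrl, 505, 511 and 539.8 in RF.SAAR, 626, 603 and 690.2 in HF.Ctrl, and 561, 553 and 547 in HF.SAAR. Again no SAAR mouse reached a Ctrl mouse of its fat level. The averaged log2 fold change was -0.30 (SE 0.06, edgeR adjusted p = 0.00685), which became -0.14 and was not called with scaling by library size alone (edgeR adjusted p = 0.198, the highest of its alternatives, whose lowest was 3.54e-06), nor without the high-acinar libraries. In RF it was -0.40 (SE 0.08, edgeR adjusted p = 0.0290). This call was lost without any one RF mouse, HF.Ctrl mouse 1 or HF.SAAR mouse 1 (log2 fold change -0.43 to -0.37, edgeR adjusted p 0.0521 to 0.102). It held in 10 of 23 alternatives, being lost also with scaling by library size alone (-0.23), effective length offsets, the compared groups alone, the most abundant transcript and without the high-acinar libraries.

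The stretch of 250 bases upstream of the start is shown for these 4 genes, the called members with the smallest p, all of them lower. Sequences and starts are from RefSeq (GRCm38.p6), whose starts for F13b and C4bp differ from those of the GENCODE genes given above, so the stretch reaches 5 bases into the GENCODE gene of F13b and 14 bases into that of C4bp. They are printed 5′ to 3′ on the strand of the gene, and 27 of the 36 genes had an entry. Capitals mark matches, on either strand, to any of 8 motifs searched: the full HNF1 palindrome, the short HNF1 motif (GTTAAT), HNF4 (CAAAGTCCA), C/EBP (TTGCNNAA), CARE (TGATGNAA), STAT (TTCNNNGAA), FOXA (TGTTTAC) and a TATA box (TATAAA), of which the short HNF1 motif lies within the full one. F11 is at chr8:45262032-45262281 (minus strand), F13b at chr1:139501457-139501706 (plus strand), Cpb2 at chr14:75242037-75242286 (plus strand) and C4bp at chr1:130661619-130661868 (minus strand).
F11: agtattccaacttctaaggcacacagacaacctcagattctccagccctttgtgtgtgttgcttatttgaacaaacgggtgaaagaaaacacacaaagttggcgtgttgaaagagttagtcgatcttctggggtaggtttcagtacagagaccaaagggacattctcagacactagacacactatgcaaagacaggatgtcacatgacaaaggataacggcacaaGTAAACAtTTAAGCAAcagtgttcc
F13b: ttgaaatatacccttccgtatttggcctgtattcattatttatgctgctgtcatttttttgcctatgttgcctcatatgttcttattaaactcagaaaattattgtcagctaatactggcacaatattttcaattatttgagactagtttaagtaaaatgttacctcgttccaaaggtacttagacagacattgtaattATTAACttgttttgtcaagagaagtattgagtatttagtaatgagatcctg
Cpb2: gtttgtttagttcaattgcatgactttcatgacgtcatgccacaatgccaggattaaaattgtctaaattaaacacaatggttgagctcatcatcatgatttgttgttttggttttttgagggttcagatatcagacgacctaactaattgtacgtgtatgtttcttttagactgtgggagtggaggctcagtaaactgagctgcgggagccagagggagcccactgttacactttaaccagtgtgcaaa
C4bp: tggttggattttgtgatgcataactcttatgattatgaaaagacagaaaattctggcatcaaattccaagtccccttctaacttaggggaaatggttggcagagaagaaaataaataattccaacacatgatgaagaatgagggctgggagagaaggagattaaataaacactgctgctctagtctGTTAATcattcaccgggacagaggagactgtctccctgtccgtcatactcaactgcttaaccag

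F11 held a C/EBP and a FOXA match beginning 17 and 25 bases before its RefSeq start, and F13b and C4bp each held a short HNF1 match, beginning 51 and 64 bases before theirs. Cpb2 held none of the 8 motifs in this window, which says only that these letters are not there. Over the 27 promoters the short HNF1 motif was present in 7 (C1ra, C4bp, Vtn, Proz, F13b, Fga and Fgb), against 6.43% of 32851 promoters of the same length. Of these 7, 6 were among the 10 called genes with an entry and 1 was among the 17 not called. C/EBP letters were present in 8 of the 27 against 9.56%, in 4 of the 10 called and 4 of the 17 not called. STAT letters were present in 5 (7.02%), FOXA in 2 (3.17%), the TATA box in 2 (12.4%) and CARE in 1 (3.45%), while full HNF1 (0.00913%) and HNF4 (0.384%) had 0 matches in the 27. A match is a description of letters and was not tested as a binding site.

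Among the classical pathway genes, 2 of 4 were called lower in the averaged comparison, against 3.70% of all genes tested. C1s1 and C1ra encode the proteases of the C1 complex and lie 6901 bases apart on opposite strands of chromosome 6. C1s1 had normalized CPM of 539.5, 530.2 and 593 in RF.Ctrl, 469.9, 403 and 439.9 in RF.SAAR, 527, 512 and 544 in HF.Ctrl, and 448, 434 and 413 in HF.SAAR. C1ra had normalized CPM of 263, 290.3 and 299 in RF.Ctrl, 244, 220.0 and 239 in RF.SAAR, 273, 287 and 255 in HF.Ctrl, and 229, 224 and 234 in HF.SAAR. For both genes every SAAR mouse was below every Ctrl mouse of its fat level. The averaged log2 fold change was -0.32 (SE 0.06, edgeR adjusted p = 0.00824) for C1s1 and -0.26 (SE 0.06, edgeR adjusted p = 0.0236) for C1ra. Neither was called with scaling by library size alone, at -0.15 and -0.09, and the C1ra call was also lost without RF.Ctrl mouse 2, RF.Ctrl mouse 3, HF.Ctrl mouse 1 or HF.SAAR mouse 1 (log2 fold change -0.26 to -0.24, edgeR adjusted p 0.0622 to 0.0675) and with no low-count filter (-0.26). Over all alternatives C1s1 was called in 20 of 22 and C1ra in 15 of 22. Without the high-acinar libraries neither was called, at -0.33 for C1s1 and -0.25 for C1ra. C2 and C4b, whose products form the classical C3 convertase, were at -0.19 and -0.16 and were not called. With scaling by library size alone they were at -0.01 and 0.00. Mean TPM of the close copies C1rb and C1s2 was 0.0947 and 0.176, whereas C4a, a close copy of C4b, was not matched, so C4b is uncertain.

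Of the 4 lectin pathway genes 0 were called by edgeR in the averaged comparison, against 6.92% of all genes. At an unadjusted p under 0.05 were 2 of the 4 against 20.3%, and DESeq2 called Masp2, against 9.17%. Masp2, a protease activated on mannose-binding lectins, had normalized CPM of 216, 224 and 233 in RF.Ctrl, 206, 184 and 153 in RF.SAAR, 205, 211 and 209 in HF.Ctrl, and 173, 193 and 190.3 in HF.SAAR. Its groups did not overlap, and its log2 fold change was -0.24 (SE 0.08, edgeR adjusted p = 0.0838). It was called without RF.SAAR mouse 1 (edgeR adjusted p = 0.0404, range over alternatives 0.0322 to 0.597) and with effective length offsets (-0.33), and was at -0.07 with scaling by library size alone. The transcript Masp2-202, of 185 codons, held 68.5% of the TPM of the gene. It is a short form without the protease domain, and the normalized CPM sum both forms. Masp1, its relative, was at -0.32 (SE 0.11, edgeR adjusted p = 0.119). The mannose-binding lectin genes Mbl1 and Mbl2 were at -0.16 and -0.05, and became 0.01 and 0.11 with scaling by library size alone. For Mbl2 the average joins -0.27 in RF and 0.17 in HF, with an interaction of diet and fat of 0.44 (edgeR unadjusted p = 0.0638), and none of these was called by edgeR or DESeq2. In annotation the span of Masp1 overlaps Rtp4 and that of Masp2 overlaps Tardbp on the opposite strand. The mean TPM of Rtp4 and Tardbp was 22.5 and 99.4 beside 24.4 and 193. An overlap of spans does not show shared reads, and whether any were shared was not tested.

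C3, on which all pathways converge, and Cfb, the protease of the alternative convertase, were not called, at 0.03 and -0.10, and became 0.19 and 0.06 with scaling by library size alone. C3 had normalized CPM of 3188, 4582 and 3267 in RF.Ctrl, 3918, 3242 and 3339.8 in RF.SAAR, 3617, 3117 and 3762 in HF.Ctrl, and 3576, 3508 and 4367 in HF.SAAR. Its mice overlapped at both fat levels, and its 95% interval of the averaged change ran from -0.19 to 0.24. Of the complement regulators 2 of 4 were called lower, C4bp and Serping1, against 3.70% of all genes. Serping1 encodes the C1 inhibitor, which blocks C1 proteases and contact factors, and had normalized CPM of 421, 386 and 437 in RF.Ctrl, 365, 370.1 and 371 in RF.SAAR, 446, 465 and 405 in HF.Ctrl, and 366, 348 and 373 in HF.SAAR. Its groups did not overlap, but its averaged change of -0.22 (SE 0.06, edgeR adjusted p = 0.0440) was near the threshold. Without any one mouse other than HF.Ctrl mouse 3 the call was lost (log2 fold change -0.25 to -0.20, edgeR adjusted p 0.0503 to 0.117). It held in 5 of 22 alternatives, and with scaling by library size alone the change was -0.05 (edgeR adjusted p = 0.606, range over alternatives 0.00181 to 0.606). It was also lost with no low-count filter, effective length offsets, the acinar covariate, the most abundant transcript and without the high-acinar libraries. Cfi, which cleaves C3b and C4b, was at -0.13 and Vtn (vitronectin) at -0.15, and turned to 0.03 and 0.01 with scaling by library size alone. DESeq2 called Vtn lower (-0.15, DESeq2 adjusted p = 0.0439, range over alternatives 0.0439 to 0.884).

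The fibrinogen chains were all called lower, 3 of 3, against 3.70% of all genes, and their genes lie within one cluster on chromosome 3. Their ratios to each other differed between the diets by -0.01, 0.01 and 0.02 on average, so the 3 calls are not separate observations. Fga had normalized CPM of 4566, 4881 and 4568 in RF.Ctrl, 3951, 3603 and 3688 in RF.SAAR, 4283, 4586 and 4002 in HF.Ctrl, and 3668, 3790.2 and 3588 in HF.SAAR. Fgb had normalized CPM of 4336, 4510.1 and 4181 in RF.Ctrl, 3638, 3725 and 3319 in RF.SAAR, 4223, 4659 and 3924 in HF.Ctrl, and 3613, 3669.6 and 3641 in HF.SAAR. Fgg had normalized CPM of 4156, 4359 and 3697 in RF.Ctrl, 3335, 3615 and 3121 in RF.SAAR, 4054, 4261 and 3601 in HF.Ctrl, and 3494, 3171 and 3192 in HF.SAAR. In each chain every SAAR mouse was below every Ctrl mouse of its fat level, by a narrow gap for Fgg. The averaged log2 fold changes were -0.27 (SE 0.06, edgeR adjusted p = 0.0103), -0.26 (SE 0.06, edgeR adjusted p = 0.0173) and -0.28 (SE 0.07, edgeR adjusted p = 0.0242), and with scaling by library size alone they were -0.10, -0.09 and -0.11 and not called. The Fgb call was lost without HF.SAAR mouse 1 or HF.SAAR mouse 3 (log2 fold change -0.26, edgeR adjusted p 0.0501 to 0.0525). The Fgg call was lost without RF.Ctrl mouse 1, RF.Ctrl mouse 2, RF.SAAR mouse 3, HF.Ctrl mouse 1, HF.Ctrl mouse 2 or HF.SAAR mouse 3 (-0.27 to -0.25, edgeR adjusted p 0.0536 to 0.0731). With the most abundant transcript both were lost, and without the high-acinar libraries none of the 3 chains was called by edgeR. Over all alternatives Fga was called in 20 of 22, Fgb in 17 and Fgg in 13. As percent of the TPM of matched genes, the chains together were 0.594, 0.696 and 0.606 in RF.Ctrl, 0.678, 0.587 and 0.602 in RF.SAAR, 0.549, 0.523 and 0.579 in HF.Ctrl, and 0.618, 0.509 and 0.609 in HF.SAAR, with the diets overlapping.

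Of the 7 vitamin K-dependent genes, 2 were called lower, Proz and Proc, against 3.70% of all genes. Proz encodes protein Z, a cofactor for inhibition of factor Xa, and had normalized CPM of 319, 355 and 386 in RF.Ctrl, 303, 252 and 237 in RF.SAAR, 343, 341 and 343 in HF.Ctrl, and 272, 284 and 296 in HF.SAAR. Proc encodes protein C, which when active degrades factors Va and VIIIa, and had normalized CPM of 414, 413 and 425 in RF.Ctrl, 369, 359 and 319.9 in RF.SAAR, 442, 453 and 382 in HF.Ctrl, and 358, 369 and 354 in HF.SAAR. In neither gene did the diets overlap within a fat level. The averaged changes were -0.34 (SE 0.08, edgeR adjusted p = 0.0143) for Proz and -0.25 (SE 0.06, edgeR adjusted p = 0.0345) for Proc. The Proc call was lost without RF.SAAR mouse 3, any RF.Ctrl mouse, HF.Ctrl mouse 1, HF.Ctrl mouse 2, HF.SAAR mouse 1 or HF.SAAR mouse 3 (log2 fold change -0.25 to -0.22, edgeR adjusted p 0.0630 to 0.0988). With scaling by library size alone Proz was at -0.18 and Proc at -0.08, and neither was called, nor was either without the high-acinar libraries. Proc was also lost with no low-count filter and the most abundant transcript. Over all alternatives Proz was called in 20 of 22 and Proc in 10 of 22. F7, which starts the extrinsic pathway with tissue factor, was just short of the threshold at -0.29 (SE 0.08, edgeR adjusted p = 0.0525) and was called by DESeq2, with at least 10 counts in every mouse, with the acinar genes left out, and without RF.Ctrl mouse 1 or RF.SAAR mouse 1 (edgeR adjusted p without these mice 0.0407 and 0.0280, range over alternatives 0.0205 to 0.353). F2 (prothrombin), F9, F10 and Pros1 (protein S) were between -0.08 and 0.01, and with scaling by library size alone they were at 0.11, 0.08, 0.10 and 0.17.

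Of the other coagulation factors, F5, the cofactor of factor Xa, was at -0.02 and F12, which starts contact activation, at -0.09, and with scaling by library size alone they were at 0.14 and 0.08. In fibrinolysis 1 of 3 was called, Cpb2, against 6.92% of all genes. Plg (plasminogen) was at -0.14 and Serpinf2, the plasmin inhibitor, at -0.11. The thrombin inhibitors Serpinc1 (antithrombin) and Serpind1 (heparin cofactor II) were at -0.03 and -0.14. All 4 had opposite signs with scaling by library size alone (0.03, 0.06, 0.13 and 0.02).

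**Figure D3:**
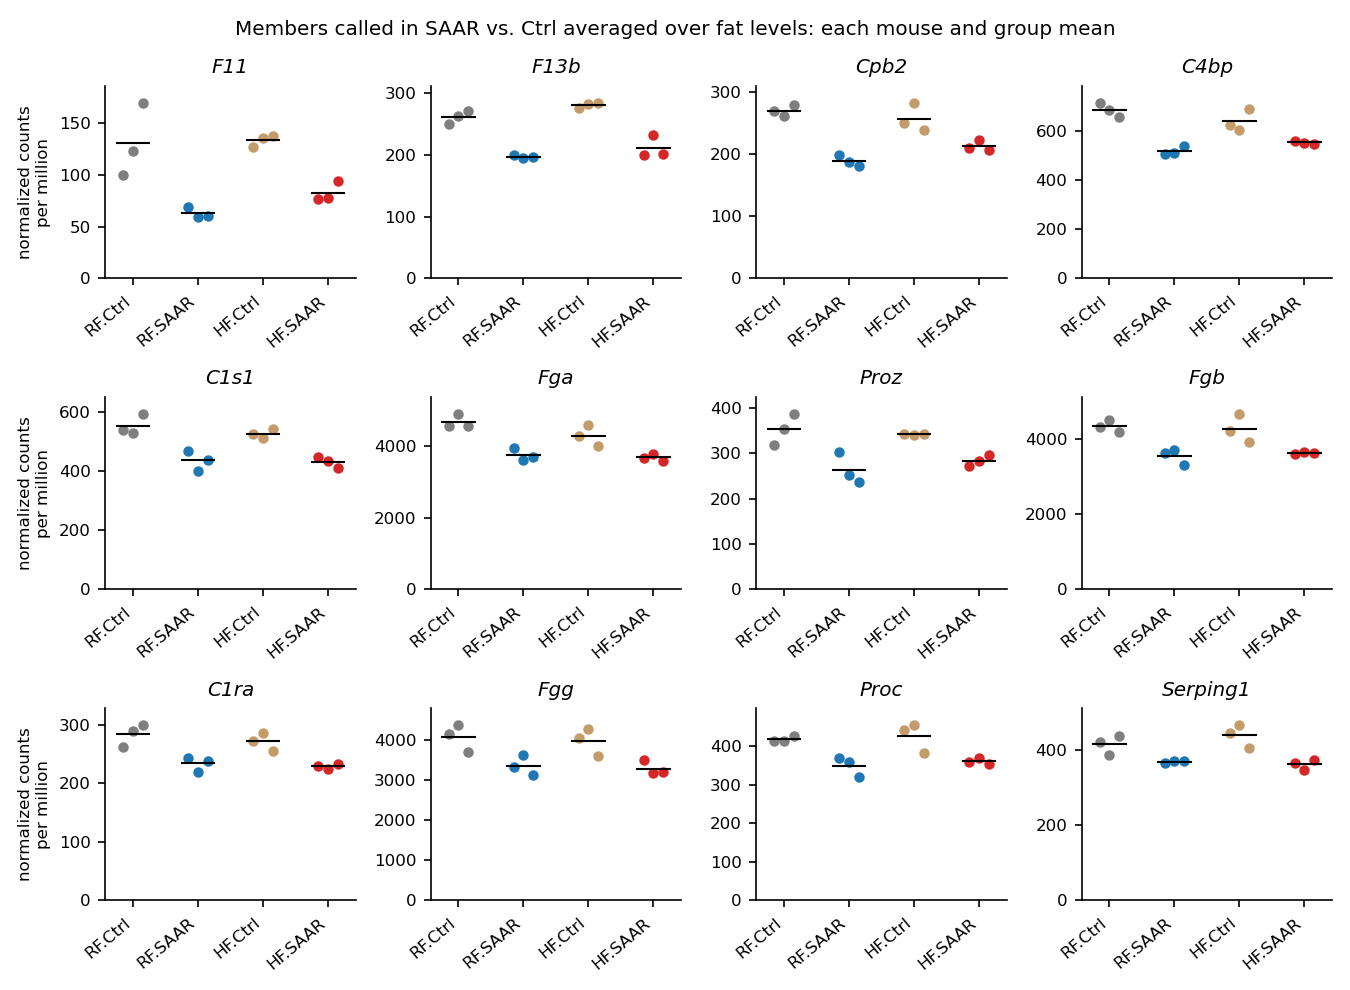
Normalized CPM (y axis, from 0) in each mouse for the 12 genes called in the averaged comparison, with points for mice and lines for group means (n = 3). In every panel the SAAR points lie below the Ctrl points of the same fat level on this TMM scale. The panels were picked by p from these same counts, and the uncalled Vtn and Masp2 also did not overlap at either fat level. The share of all genes without overlap was not counted. The largest log2 fold change is that of F11 (-0.87).

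Of the 3 contact and kinin genes 0 were called by edgeR in the averaged comparison, against 6.92% of all genes. Klkb1 and Kng2 were at an unadjusted p under 0.05, as were 20.3% of all genes. DESeq2 called Klkb1 lower (-0.28, DESeq2 adjusted p = 0.0173, range over alternatives 0.0173 to 0.454). Klkb1 encodes plasma prekallikrein, and its gene lies 4657 bases from F11 on the same strand. It had normalized CPM of 218, 206 and 264 in RF.Ctrl, 211, 162 and 189 in RF.SAAR, 243, 233 and 251 in HF.Ctrl, and 202, 195 and 206 in HF.SAAR, and its averaged change was -0.28 (SE 0.08, edgeR adjusted p = 0.0552), called without RF.SAAR mouse 1 (edgeR adjusted p = 0.0370, range over alternatives 0.0173 to 0.454). Kng1 and Kng2 encode kininogens, the precursors of bradykinin, and lie 28382 bases apart on opposite strands. Kng1 had normalized CPM of 1687, 1892 and 1899 in RF.Ctrl, 1568, 1521 and 1438 in RF.SAAR, 1686, 1823 and 1619 in HF.Ctrl, and 1609, 1813 and 1779.7 in HF.SAAR. Kng2 had normalized CPM of 230.0, 277 and 267 in RF.Ctrl, 257, 264 and 239 in RF.SAAR, 228, 248 and 244 in HF.Ctrl, and 289, 328 and 339 in HF.SAAR. In RF the Kng1 groups did not overlap and the Kng2 groups did, whereas in HF every SAAR mouse was above every Ctrl mouse for Kng2. The averaged change was -0.13 (SE 0.06, edgeR adjusted p = 0.267) for Kng1 and 0.19 (SE 0.07, edgeR adjusted p = 0.135) for Kng2, and with scaling by library size alone it was 0.04 and 0.36, the latter called (edgeR adjusted p = 0.00707, range over alternatives 0.00707 to 0.821). The HF change of Kng2 was 0.41 (SE 0.10, edgeR adjusted p = 0.0560) and was called without RF.Ctrl mouse 1 (0.0489, range over alternatives 0.00237 to 0.756). Kng1 and Kng2 share similar sequence, so how reads were divided between them is uncertain, and Klkb1 overlaps a gene model on the same strand with a mean TPM of 5.99 beside 44.5.

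Ratios of members to each other do not depend on the scaling of libraries. They were taken as log2 ratios of counts in each mouse for 11 pairs that lie within 100 kb or are paralogs, and SAAR was set against Ctrl by a 2-sided exact permutation test within fat levels, averaged over both. With 400 arrangements the smallest p is 0.00500. The pairs were chosen after values of the same counts had been seen, so p and adjusted p are descriptive. Ratios within F7, F10 and Proz, and within the fibrinogen chains, depend on each other. F11 over Klkb1 was -1.13, -0.74 and -0.65 in RF.Ctrl, -1.61, -1.44 and -1.63 in RF.SAAR, -0.94, -0.77 and -0.87 in HF.Ctrl, and -1.40, -1.32 and -1.13 in HF.SAAR. No SAAR mouse reached a Ctrl mouse of its fat level, and the averaged difference was -0.57 (exact permutation p = 0.00500, adjusted over 11 pairs 0.0275). Kng1 over Kng2 was 2.88, 2.77 and 2.83 in RF.Ctrl, 2.61, 2.53 and 2.59 in RF.SAAR, 2.88, 2.88 and 2.73 in HF.Ctrl, and 2.48, 2.47 and 2.39 in HF.SAAR. The diets did not overlap at either fat level, and the difference was -0.32 (exact permutation p = 0.00500, adjusted 0.0275). Both held without any one mouse, at -0.64 to -0.52 and -0.34 to -0.31, with adjusted p up to 0.0367.

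F10 over Proz was 0.05, 0.07 and -0.11 in RF.Ctrl, 0.06, 0.40 and 0.38 in RF.SAAR, 0.01, 0.11 and -0.14 in HF.Ctrl, and 0.28, 0.32 and 0.23 in HF.SAAR. In RF the diets overlapped through RF.SAAR mouse 1, and in HF they did not, with an averaged difference of 0.28 (exact permutation p = 0.0100, adjusted 0.0367). Adjusted p rose to as much as 0.0733 without RF.Ctrl mouse 1, RF.Ctrl mouse 3 or any HF.SAAR mouse. F7 over F10 differed by -0.23 (exact permutation p = 0.0150, adjusted 0.0412), and that was lost without any one mouse other than RF.SAAR mouse 1 (up to 0.0963). Ratios between fibrinogen chains differed by -0.01 for Fga over Fgb, 0.01 for Fga over Fgg and 0.02 for Fgb over Fgg (exact permutation p = 0.840, 0.920 and 0.635). The remaining 4 pairs had adjusted p from 0.396 to 0.770.

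**Figure D4:**
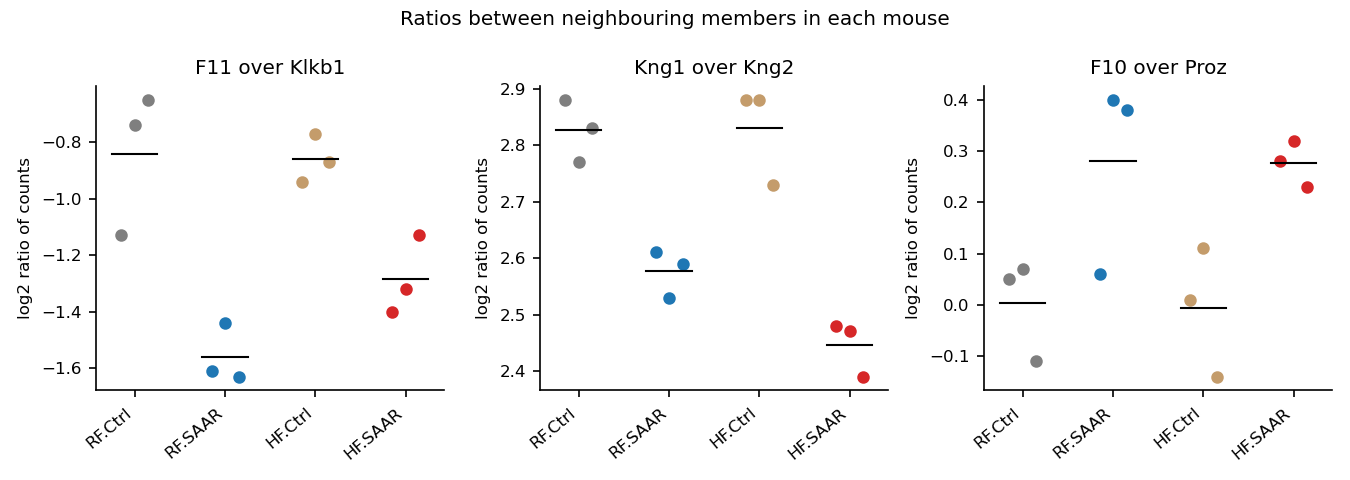
Log2 ratio of counts of a pair of neighbouring genes in each mouse (y axes differ between panels), by group, with points for mice and lines for means (n = 3). SAAR points lie below Ctrl points for F11 over Klkb1 and Kng1 over Kng2 at both fat levels, while F10 over Proz is higher in SAAR by 0.28 on average with an overlap in RF.

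Between the fat levels none of the 36 genes was called by edgeR or DESeq2. In HF.Ctrl vs. RF.Ctrl edgeR called 0 of the 36 genes and 0% of all genes, with 0 of the 36 against 3.59% at an unadjusted p under 0.05, and DESeq2 called 0 of the 36 against 0.209%. With restriction at both fat levels (HF.SAAR vs. RF.SAAR) 0 of the 36 were called by edgeR against 0.0477%, with 4 of the 36 (F9, F11, Kng1 and Kng2, all higher in HF.SAAR) against 5.58% at an unadjusted p under 0.05, and DESeq2 called 0 of the 36 against 0.572%. For the interaction of diet and fat edgeR called 0 of the 36 against 0.00682%, with 2 of the 36 (Kng1 at 0.30 and Kng2 at 0.43) against 3.15% at an unadjusted p under 0.05, and DESeq2 called 0 of the 36 against 0.104%. The larger F11 change in RF was therefore not shown to differ from that in HF, its interaction being 0.36 (SE 0.23, edgeR adjusted p = 0.999). Among the 24 genes not called in the averaged comparison, log2 fold changes lay between -0.32 and 0.19, and 23 of the 95% intervals lay within 0.5 of 0.

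Other genes of these systems were read from lists, beside the same scaling and the 6.92% of all genes called in the averaged comparison. Terminal complement, which forms the membrane attack complex, had 6 of 7 called lower in the averaged comparison, with a median log2 fold change of -0.59. The 5 with the smallest p were C9 at -1.32 (SE 0.08, edgeR adjusted p = 1.44e-06), C6 at -1.43 (SE 0.10, edgeR adjusted p = 4.30e-06), C8b at -0.80 (SE 0.09, edgeR adjusted p = 1.84e-04), C8a at -0.59 (SE 0.10, edgeR adjusted p = 0.00343) and Hc, which encodes C5, at -0.43 (SE 0.08, edgeR adjusted p = 0.00396). The Hc call was lost with scaling by library size alone (-0.27, edgeR adjusted p = 0.0670, range over alternatives 7.15e-06 to 0.0670). In RF C8a (-0.42, edgeR adjusted p = 0.179) and Hc (-0.38, edgeR adjusted p = 0.105) were not called. Among other complement genes 3 of 25 tested were called, all lower, with a median of 0.03. They included Clu (clusterin) at -0.36 (SE 0.06, edgeR adjusted p = 0.00169) and Cpn2 (a carboxypeptidase N subunit) at -0.29 (SE 0.08, edgeR adjusted p = 0.0340). The Cpn2 call was lost without RF.Ctrl mouse 2 or 3, RF.SAAR mouse 1 or 3, HF.Ctrl mouse 1 or 3, or HF.SAAR mouse 2 or 3 (edgeR adjusted p 0.0524 to 0.0932). Among other coagulation and fibrinolysis genes 3 of 29 tested were called lower and 1 higher, with a median of -0.09. Serpine2 (protease nexin) was at -0.60 (SE 0.10, edgeR adjusted p = 0.00355) and Mcfd2, a cargo receptor subunit for factors V and VIII, at 0.32 (SE 0.07, edgeR adjusted p = 0.0123). Serpine2 was called in RF (-0.72) but not in HF (-0.48, edgeR adjusted p = 0.133). Mcfd2 was called in HF (0.48) but not in RF (0.16, edgeR adjusted p = 0.530). Serpina10, the inhibitor that protein Z assists, was at -0.26 (SE 0.07, edgeR adjusted p = 0.0307) and Hrg (histidine-rich glycoprotein) at -0.24 (SE 0.06, edgeR adjusted p = 0.0416). The Serpina10 call was lost without any RF.Ctrl mouse, RF.SAAR mouse 2 or 3, HF.Ctrl mouse 1 or HF.SAAR mouse 1 (0.0529 to 0.0978), and the Hrg call without any one mouse other than RF.SAAR mouse 1 (0.0528 to 0.109). With scaling by library size alone Cpn2 was at -0.13, Serpina10 at -0.10 and Hrg at -0.07, none of them called (edgeR adjusted p 0.339, 0.384 and 0.559, the highest of their alternatives, whose lowest were 0.00518, 0.00164 and 0.00800). Over all alternatives they were called in 10, 10 and 6 of 22, and none of them was called within a fat level by edgeR. Without the high-acinar libraries C8a, Clu, Cpn2, Serpine2, Mcfd2, Serpina10 and Hrg were not called.

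In the vitamin K cycle 1 of 6 genes was called, Nqo1, a quinone reductase, at 0.87 (SE 0.12, edgeR adjusted p = 9.15e-04), with a median of 0.02 over the 6. Within the fat levels Nqo1 was at 0.34 (SE 0.17, edgeR adjusted p = 0.432) in RF, where it was not called, and at 1.40 (SE 0.18, edgeR adjusted p = 9.35e-04) in HF. Of 22 hepatocyte transcription factors 1 was called higher, Atf5 at 1.28 (SE 0.10, edgeR adjusted p = 5.94e-06), and 1 lower, Onecut1 at -1.65 (SE 0.36, edgeR adjusted p = 0.0298), with a median of -0.08. The Onecut1 call was lost without any RF.Ctrl mouse, RF.SAAR mouse 1 or 3, or HF.SAAR mouse 1 or 2 (edgeR adjusted p 0.0534 to 0.0770). It was also lost with no low-count filter, and over all alternatives it was called in 13 of 22. At neither fat level was Onecut1 called (-1.61 in RF, edgeR adjusted p = 0.195, and -1.68 in HF, edgeR adjusted p = 0.191). Its normalized CPM in HF.Ctrl were 102, 36.9 and 27.5. Of 20 IL-6 and acute-phase genes 4 were called higher and 5 lower, with a median of 0.04. They included Apcs (serum amyloid P) at 1.15 (SE 0.13, edgeR adjusted p = 2.34e-04), Lbp at 0.64 (SE 0.11, edgeR adjusted p = 0.00352), Saa4 at -0.72 (SE 0.08, edgeR adjusted p = 1.34e-04), Orm1 at -1.45 (SE 0.18, edgeR adjusted p = 7.55e-04) and Orm2 at -1.49 (SE 0.27, edgeR adjusted p = 0.00532). Lbp was not called in RF (0.53, edgeR adjusted p = 0.121), nor Orm2 in HF (-1.03, edgeR adjusted p = 0.237). Without the high-acinar libraries Nqo1, Onecut1, Lbp and Orm1 were not called.

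Codons were counted for methionine, which was low in the SAAR diets alone, and for cysteine, which every diet lacked, controls included. They were counted in the most abundant coding transcript of each gene, which for Masp2 is the short form. Cysteine codons made up a median of 3.97% in the 36 genes, 3.78% in the 12 called and 4.08% in the 24 not called, against 1.94% over 14179 genes tested. Methionine codons made up 1.75%, 1.82% and 1.67%, against 2.18%. The called F13b (5.98%) and F11 (5.61%) and the uncalled F12 (6.70%) and Cfi (6.63%) were all rich in cysteine codons, and Serping1 (0.992%), also called, was poor. These shares are descriptions, and their part in the changes was not tested.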

How the data were processed

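RNA was measured by sequencing in 12 mouse livers, 3 in each group. After trimming with cutadapt, the authors ran kallisto on Ensembl release 94 transcripts. The deposited values are its estimated counts of read pairs for each transcript, not normalized. The deposited TPM are those counts per effective length, scaled to a common sum. Of 118489 transcripts 116816 matched the GENCODE M21 annotation of GRCm38, and the rest held 1.08% of counts.

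Estimated counts were summed per gene, rounded and tested in R 4.3.3 with edgeR 4.0.16 (filterByExpr, TMM, robust quasi-likelihood F-test over all 12 mice with a coefficient per group, Benjamini-Hochberg adjustment over 14670 genes). The common biological coefficient of variation was 0.215. DESeq2 1.42.0 was an alternative. Scripts were tested on simulated data. No replicate pair agreed within counting noise, the mean chi-square per gene being 23.2 to 65.3. Library totals were 16203094 to 21230092, and errors reflect the spread between mice. Alternatives were RLE factors, library size alone, no filter, at least 10 counts in every mouse, effective length offsets, the compared groups alone, the most abundant transcript, and leaving out each mouse. Labels give no replicate numbers, so mice were numbered in accession order and no pairing was used.

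The members and lists were chosen with earlier results of these data known. All 36 members are named, with the called genes of the other lists, at most 5 of each. The pairs, the motifs, the codon counts, the 3 acinar alternatives with their limit of 1000 normalized CPM, and the alternatives run on list genes and pairs were chosen after values had been seen. The list genes C4a and Tf were not matched. A gene on these lists is not reported here.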

Additional observations from a re-analysis of the deposited data

How the results depend on the processing

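With all mice 4, 2 and 12 of the 36 genes passed for SAAR against Ctrl on regular fat (RF), on high fat (HF) and in their average. Scaling by library size alone gave 2 (F11 and Cpb2, lower), 1 (Kng2, higher) and 4 (F11, F13b and Cpb2 lower, Kng2 higher), against 2.90%, 4.89% and 16.7% of all genes, and the average then had 88.8% of all calls higher in place of 46.5%. DESeq2 gave 9 in RF, 5 in HF (Kng2 higher, the other 4 lower) and 16 in the average, against 4.85%, 4.71% and 9.17% of all genes. The compared groups alone gave 2 in RF and 1 in HF (against 1.14% and 1.36% of all genes), the most abundant transcript 2 and 1 (0.274% and 0.661%), and no low-count filter and effective length offsets 1 each in HF (1.12% and 1.48%). Added after seeing the data, the acinar covariate gave 1 in HF (2.04%), and leaving out the libraries with high acinar sums gave 1, 0 and 1 by edgeR, against 0.525%, 0.0389% and 1.52% of all genes (DESeq2 on all mice is given above, and 14 genes had an unadjusted p under 0.05 in HF). Leaving out each mouse gave 1 to 4, 0 to 3 and 8 to 14 genes, against 0.579% to 1.62%, 0.732% to 2.07% and 4.36% to 6.45% of all genes. The causes of these changes were not tested.

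The median log2 fold change of the 36 genes was -0.06 in RF, 0.02 in HF and 0.01 in the average with scaling by library size alone, and -0.29 to -0.19 in RF when each mouse was left out. With that scaling averaged log2 fold changes turned to 0.00 for C4b, 0.01 for Mbl1, 0.11 for Mbl2, 0.06 for Cfb, 0.03 for Cfi, 0.01 for Vtn, 0.11 for F2, 0.08 for F9, 0.10 for F10, 0.14 for F5, 0.08 for F12, 0.04 for Kng1, 0.03 for Plg, 0.06 for Serpinf2, 0.13 for Serpinc1 and 0.02 for Serpind1, and in RF to 0.05 for Mbl1 and 0.14 for Kng2. None of these was called in either analysis by edgeR. Without the libraries with high acinar sums C3 was at -0.13, F2 at 0.00 and Pros1 at -0.06 in the average, and Mbl2 at -0.01 and Kng1 at -0.03 in HF. With the most abundant transcript Pros1 was at 0.00 in the average and Kng1 at -0.02 in HF. Leaving out each mouse, the average ran from -0.16 to 0.02 for Mbl2, -0.03 to 0.12 for C3, -0.04 to 0.06 for Pros1 and -0.07 to 0.05 for F5, with Kng2 from -0.10 to 0.03 in RF, and Mbl2 from -0.04 to 0.31 and Kng1 from -0.02 to 0.07 in HF. Pair ratios ran from -0.03 to 0.02 for Fga over Fgb, -0.02 to 0.05 for Fga over Fgg and -0.16 to 0.03 for Mbl1 over Mbl2. The lowest count of any of the 36 genes in a mouse was 730.0 (Pros1), and the effect of depth was not tested. No paired analysis was possible because the labels carry no replicate numbers.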

Other observations

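Markers of other cells in liver were read as lists in SAAR vs. Ctrl averaged over fat levels, where edgeR called 6.92% of all genes tested. Among 10 Kupffer cell genes 1 was called by edgeR, Slc40a1 (ferroportin) at 0.33 (SE 0.08, adjusted p = 0.0229), and Clec4f was most abundant (mean 56.7 TPM). The Slc40a1 call was lost without RF.Ctrl mouse 2 or 3, RF.SAAR mouse 3, HF.Ctrl mouse 1 or HF.SAAR mouse 3 (edgeR adjusted p 0.0562 to 0.0716). Among 10 sinusoidal endothelial genes 1 was called, Lyve1 at 0.55 (SE 0.11, edgeR adjusted p = 0.00745), with Clec4g most abundant (71.9 TPM). Among 10 stellate cell genes 1 was called, Lrat, which esterifies retinol, at -0.59 (SE 0.14, edgeR adjusted p = 0.0177), with Dcn most abundant (93.4 TPM). The Lrat call was lost without RF.SAAR mouse 3 (edgeR adjusted p = 0.0540, range over alternatives 0.00219 to 0.0897) and with scaling by library size alone (-0.43, edgeR adjusted p = 0.0803). Of 7 cholangiocyte genes tested 1 was called, Spp1 (osteopontin), at -0.46 (SE 0.09, edgeR adjusted p = 0.00768). Within the fat levels Slc40a1, Lyve1 and Spp1 were called in neither, and Lrat in RF alone (-0.86, edgeR adjusted p = 0.0408).

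Summed normalized CPM of the Kupffer cell list were 470.3, 532 and 449 in RF.Ctrl, 452, 486 and 535 in RF.SAAR, 400.2, 496 and 460.3 in HF.Ctrl, and 495, 623 and 570.0 in HF.SAAR. In HF the diets overlapped only through HF.Ctrl mouse 2 and HF.SAAR mouse 1, and the median log2 fold change of the list was 0.30 in HF and -0.05 in RF, a difference that was not tested. Sums were 368 to 427 for the endothelial list and 357 to 475 for the stellate list, with the diets overlapping at both fat levels. Without the libraries with high acinar sums Slc40a1, Lyve1 and Spp1 were not called, and with the most abundant transcript Slc40a1, Lrat and Spp1 were not. Platelet genes were near the floor, with sums from 3.14 to 4.92 and Pf4 most abundant (3.04 TPM), and 2 of 8 had a mean above 1 TPM. Neutrophil sums ran from 1.28 to 5.21 with S100a9 most abundant (4.27 TPM), and adipocyte sums from 14.7 to 76.7 with Fabp4 most abundant (32.3 TPM). By edgeR 0 of 4 platelet, 0 of 2 neutrophil, 0 of 5 adipocyte and 0 of 33 acinar genes tested were called, with 0, 0, 1 and 0 at an unadjusted p under 0.05, and DESeq2 called 0 in each.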
